A study of Mus musculus with 11 samples.

Results

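Notch signalling was followed in whole neonatal skin through 10 of the 49315 genes in the count table: the ligand genes Jag1, Jag2, Dll1 and Dll4, the receptor genes Notch1, Notch2 and Notch3, the target genes Hes1 and Hey1, and Rbpj, the DNA-binding partner of the cleaved receptor. The genes were chosen by symbol, because regulatory T cells (Tregs) of the skin act on hair follicles through Jag1. RNA sequencing of bulk skin covered 11 mice, with 1 library per mouse. All carried Foxp3-DTR, an allele that places the diphtheria toxin receptor under the control of the Foxp3 locus, so that diphtheria toxin (DT) kills Foxp3-expressing cells, and all were on a C57BL/6J background, with both sexes in use. The 2 PBS mice were the controls and received PBS without DT. The 3 EarlyDT mice received DT at 30 ng/g on postnatal days 6 and 8 and were harvested on day 9. The 3 LateDT mice received DT on days 10 and 12, at a dose not given for this regimen in the sources used here, and were harvested on day 13. The 3 FullDT mice received DT at 30 ng/g on days 6, 8, 10 and 12 and were harvested on day 13. The study describes its controls as matched in age to the treated mice, on day 9 or day 13, but which day applies to either PBS mouse is not in the labels. EarlyDT skin was younger than LateDT and FullDT skin, so age and regimen cannot be told apart in a comparison that crosses days, which may hold for those with PBS too. The labels do not separate batches, and none was modelled. The question put to the data was whether the transcripts of this pathway differed between control skin and skin given the toxin early, late or throughout.

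In canonical Notch signalling, a ligand of the Jagged or Delta-like family on the surface of a cell binds a Notch receptor on its neighbour. The pull of the bound ligand exposes the receptor to cleavage by an ADAM protease and then by the gamma-secretase complex, and the freed intracellular domain enters the nucleus. There it joins Rbpj and a Mastermind coactivator, and turns on target genes such as those of the Hes and Hey families of repressors. Without the intracellular domain, Rbpj recruits corepressors to the same sites. In skin the pathway is known for driving keratinocytes out of the basal layer, for maintaining hair follicle and melanocyte lineages, and for specifying arteries and their mural cells, and Jag1 on Tregs is known to promote the differentiation of follicle stem cells.

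Total counts per library were 29104226 and 25075547 in the PBS mice, 27229727, 30571811 and 23377571 in the EarlyDT mice, 32121794, 26197908 and 32238294 in the LateDT mice, and 23717325, 34159435 and 32756819 in the FullDT mice. Levels are given in CPM, a gene's count scaled to a common library total by the TMM method, and differences are log2 fold changes from edgeR's quasi-likelihood test. A gene was called where its p, adjusted by the Benjamini-Hochberg method over 18375 tested genes, was under 0.05. All 10 genes passed the filter on low counts and were tested. Every comparison with PBS rests on the same 2 control mice.

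Foxp3, the gene that carries the toxin receptor and marks Tregs, was near the detection floor of bulk skin, with raw counts of 20 and 14 in the PBS mice, 10, 16 and 11 in the EarlyDT mice, 23, 13 and 13 in the LateDT mice, and 9, 19 and 18 in the FullDT mice. The 3 EarlyDT libraries lay below both PBS libraries in CPM, and the other pairs of groups overlapped. The log2 difference in Foxp3 from PBS was -0.49 (95% interval -1.20 to 0.22) in EarlyDT, -0.23 (95% interval -0.92 to 0.45) in LateDT and -0.30 (95% interval -0.995 to 0.39) in FullDT. None was called, so at this depth Foxp3 could neither show nor contradict a loss of Tregs, and the groups are named by their labels. The libraries were skin by their markers: Krt5, Krt71 and Col1a1 had the highest CPM per kilobase of the lists for basal keratinocytes, hair follicle and fibroblasts, and no marker of any of the 12 lists had a count of 0 in a library.

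Per kilobase of merged exon, the transcript levels of the 10 genes fell into an order with several gaps. Hes1 averaged 40.8 CPM per kilobase over the 11 libraries (range 36.8 to 46.5) and Notch1 38.1 (34.2 to 42.2), and the ranges of these highest members overlapped. Jag2 at 31.7 (29.4 to 33.6) and Jag1 at 31.6 (29.1 to 35.6) followed, and could not be separated from each other. The highest Jag1 value overlapped the lowest of Notch1, whereas Jag2 lay below Notch1 in every library. Notch3 at 23.9 (21.8 to 26.0) and Notch2 at 20.5 (15.9 to 24.3) overlapped in turn below them. The Delta-like ligand Dll1 reached 4.79 (4.29 to 5.35), next to Rbpj at 3.84 (3.09 to 4.97). Dll4 at 1.80 (1.49 to 2.10) and Hey1 at 1.41 (0.735 to 1.81) closed the order. The ranges over all libraries left 3 gaps that no gene bridged, between the Jagged ligands and Notch3, between Notch2 and Dll1, and between Rbpj and Dll4. Jagged transcripts therefore stood well above Delta-like transcripts in every library, on the scale of CPM per kilobase.

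**Figure D1:**
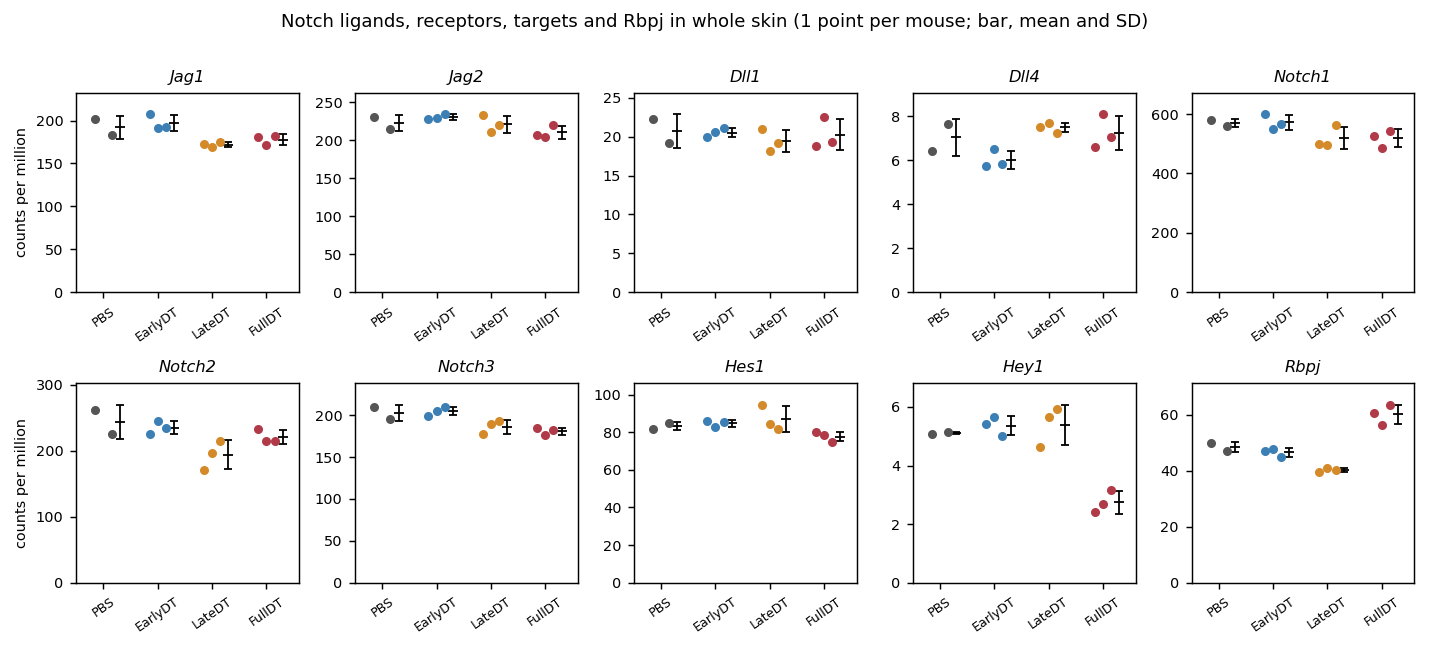
Level of each of the 10 Notch pathway genes in CPM (vertical axes, starting at 0) in every mouse of the 4 groups, with the mean and SD of the group beside the points. The 3 FullDT mice lay below every other mouse for Hey1 and above every other mouse for Rbpj, and the LateDT mice lay lowest for Rbpj.

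Jag1 encodes Jagged1, the ligand through which skin Tregs act on follicle stem cells, and keratinocytes and vessels of the skin transcribe it too. Its level was 202 and 183 CPM in the PBS mice, 208, 191 and 193 in the EarlyDT mice, 172, 169 and 175 in the LateDT mice, and 181, 171 and 182 in the FullDT mice. The PBS and EarlyDT mice overlapped, and all LateDT and FullDT mice lay below both PBS mice and all EarlyDT mice, by a small step. The log2 difference from PBS was 0.036 (95% interval -0.10 to 0.17) in EarlyDT, -0.16 (95% interval -0.29 to -0.028) in LateDT and -0.11 (95% interval -0.24 to 0.020) in FullDT, and none of these was called. In bulk skin, fewer cells of a type and less RNA per cell cannot be told apart, for Jag1 as for the other genes. Jag1 in EarlyDT against LateDT came close to the threshold, with a log2 difference of 0.20, 95% interval 0.078 to 0.31, adjusted p = 0.0555 with edgeR, and DESeq2's Wald test called it (adjusted p = 0.0494, range 0.0494 to 0.160 over the 12 alternatives).

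Jag2 encodes Jagged2, a second Jagged ligand that is prominent in follicle and basal epithelium. It stood at 229.9 and 215 CPM in the PBS mice, 227, 229 and 234 in the EarlyDT mice, 233, 210.3 and 219.7 in the LateDT mice, and 207, 205 and 219.6 in the FullDT mice. LateDT spanned nearly the whole range of the other groups, FullDT overlapped PBS, and all FullDT mice lay below all EarlyDT mice. Against PBS, the log2 difference was 0.050 (95% interval -0.083 to 0.18) in EarlyDT, -0.0089 (95% interval -0.14 to 0.12) in LateDT and -0.080 (95% interval -0.21 to 0.052) in FullDT, with no call. The ratio of Jag1 to Jag2 counts within a library, which does not depend on scaling, ranged from 0.740 to 0.913 and was lowest in the 3 LateDT libraries.

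Dll1, a Delta-like ligand known for its work in the dermal condensate of early follicles and in interfollicular epidermis, was measured at 22.3 and 19.2 CPM in the PBS mice, 19.9, 20.6 and 21.1 in the EarlyDT mice, 21.01, 18.1 and 19.2 in the LateDT mice, and 18.9, 22.6 and 19.4 in the FullDT mice. All 4 groups overlapped. Differences of Dll1 from PBS were, in log2, -0.015 (95% interval -0.23 to 0.20) in EarlyDT, -0.092 (95% interval -0.31 to 0.13) in LateDT and -0.033 (95% interval -0.25 to 0.18) in FullDT. The antisense transcript A930024N18Rik shares 20.5% of the merged exon length of Dll1, reached at most 61 counts in a library, and could not be told apart where it overlaps, because the strand setting of the counting is not given in the sources used here. Dll4, the ligand of endothelial tip cells and arteries, was measured at 6.44 and 7.65 CPM in the PBS mice, 5.75, 6.51 and 5.83 in the EarlyDT mice, 7.54, 7.69 and 7.26 in the LateDT mice, and 6.60, 8.11 and 7.05 in the FullDT mice. The EarlyDT mice overlapped PBS but lay below all LateDT and FullDT mice. Against PBS, Dll4 differed in log2 by -0.22 (95% interval -0.49 to 0.049) in EarlyDT, 0.090 (95% interval -0.18 to 0.36) in LateDT and 0.047 (95% interval -0.22 to 0.32) in FullDT. For EarlyDT against LateDT the log2 difference in Dll4 was -0.31, 95% interval -0.55 to -0.071, adjusted p = 0.118, and for FullDT against EarlyDT it was 0.27, 95% interval 0.027 to 0.51, adjusted p = 0.106, so neither passed.

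Notch1, the main receptor of suprabasal keratinocytes and of the follicle, was measured at 579.7 and 559.9 CPM in the PBS mice, 600.1, 550.3 and 565 in the EarlyDT mice, 499, 496 and 563 in the LateDT mice, and 526, 487 and 544 in the FullDT mice. The FullDT mice lay below both PBS mice, and below all EarlyDT mice, whereas LateDT overlapped PBS through mouse 3. Set against PBS, the log2 difference was 0.0052 (95% interval -0.17 to 0.18) in EarlyDT, -0.13 (95% interval -0.30 to 0.037) in LateDT and -0.13 (95% interval -0.30 to 0.036) in FullDT, with no call. Notch2, a receptor shared by epidermis, follicle and dermis, was measured at 262 and 226 CPM in the PBS mice, 225, 244 and 235 in the EarlyDT mice, 171, 196 and 214 in the LateDT mice, and 232, 215 and 215 in the FullDT mice. All LateDT mice lay below both PBS mice and below every EarlyDT and FullDT mouse, with LateDT mouse 1 the lowest and LateDT mouse 3 just under FullDT mouse 2. Its log2 differences from PBS were -0.056 (95% interval -0.26 to 0.15) in EarlyDT, -0.33 (95% interval -0.54 to -0.13) in LateDT and -0.14 (95% interval -0.35 to 0.063) in FullDT. The LateDT difference of Notch2 missed the threshold (adjusted p = 0.0718), and the leave-out of LateDT mouse 3 gave 0.0261 and no filter on low counts 0.00365, within 0.00365 to 0.346 over its 11 alternatives.

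Notch3 (ENSMUSG00000038146, chr17:32120820-32166852 on the minus strand, GRCm38) is the receptor of pericytes and arterial smooth muscle, and is also found in suprabasal keratinocytes. It was measured at 209.8 and 196 CPM in the PBS mice, 199.5, 205 and 210.0 in the EarlyDT mice, 177, 189 and 193 in the LateDT mice, and 185, 176 and 182 in the FullDT mice. The LateDT and FullDT mice, which overlapped each other, lay below both PBS mice and all EarlyDT mice. The log2 difference of Notch3 from PBS was 0.015 (95% interval -0.11 to 0.14) in EarlyDT, -0.12 (95% interval -0.25 to 0.0027) in LateDT and -0.17 (95% interval -0.29 to -0.042) in FullDT. The FullDT difference from PBS missed the threshold (adjusted p = 0.0580), and library-size scaling took it to 0.0373 within a range of 0.0373 to 0.257 over 11 alternatives. Against EarlyDT, Notch3 fell in FullDT by a log2 fold change of -0.18, 95% interval -0.29 to -0.070, adjusted p = 0.0238, a 1.13-fold lower level. Against LateDT, harvested on the same day as FullDT, its log2 difference was -0.045, 95% interval -0.16 to 0.067, adjusted p = 0.604, with overlapping groups and no call. The call against EarlyDT ended at adjusted p = 0.0679 without EarlyDT mouse 2, 0.0839 without EarlyDT mouse 3, 0.0968 without FullDT mouse 2 and 0.0621 without FullDT mouse 3, and at 0.0660 with no filter on low counts (range 0.00250 to 0.0968 over 12 alternatives).

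Some exons of the receptors overlap other annotated transcripts, Gm13568 and 0610009E02Rik for Notch1, Gm42820 for Notch2 and Gm17276 for Notch3, each with at most 7.50% of the receptor's merged exon length, and Gm14207 overlaps Dll4. No annotated exon of another gene overlapped Jag1, Jag2, Hes1, Hey1 or Rbpj.

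Rbpj (ENSMUSG00000039191, chr5:53466152-53657362 on the plus strand, GRCm38) encodes the transcription factor through which all Notch receptors signal, and was the member called in both directions. Its level was 49.8 and 47.1 CPM in the PBS mice, 47.1, 47.8 and 44.8 in the EarlyDT mice, 39.4, 41.1 and 40.4 in the LateDT mice, and 60.6, 56.4 and 63.4 in the FullDT mice. All 3 FullDT mice were above every other mouse, all 3 LateDT mice were below every other mouse, and EarlyDT and PBS overlapped. Group means were 48.5 ± 1.89 CPM (SD, n = 2) in PBS, 46.6 ± 1.58 CPM (SD, n = 3) in EarlyDT, 40.3 ± 0.855 CPM (SD, n = 3) in LateDT and 60.2 ± 3.49 CPM (SD, n = 3) in FullDT. Against PBS, Rbpj rose in FullDT with a log2 fold change of 0.31, 95% interval 0.18 to 0.44, adjusted p = 0.00370, a 1.24-fold higher level. It fell in LateDT with a log2 fold change of -0.27, 95% interval -0.40 to -0.14, adjusted p = 0.0318, a 1.20-fold lower level. In EarlyDT the log2 difference was -0.058 (95% interval -0.19 to 0.074) and was not called. The FullDT call ended without PBS mouse 2 (adjusted p = 0.0505, range 0.00249 to 0.0505 over 11 alternatives).

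The fall of Rbpj in LateDT lay close to the threshold. The call ended at adjusted p = 0.173 without PBS mouse 1, 0.0709 without PBS mouse 2, 0.0558 without LateDT mouse 1, 0.0535 without LateDT mouse 2 and 0.0505 without LateDT mouse 3, and at 0.121 with DESeq2's Wald test, 0.162 with edgeR fitted to the 2 groups alone and 0.0631 with library size in place of TMM scaling, out of a range of 0.0309 to 0.173 over 11 alternatives. The log2 fold change ranged from -0.31 to -0.23 over the same alternatives. The count of Rbpj relative to Notch1 in the same library, a ratio that needs no scaling, was 0.0859 and 0.0842 in the PBS mice, 0.0785, 0.0868 and 0.0792 in the EarlyDT mice, 0.0789, 0.0830 and 0.0717 in the LateDT mice, and 0.115, 0.116 and 0.116 in the FullDT mice. By this ratio the FullDT mice again lay above every other mouse, while LateDT overlapped EarlyDT and lay below PBS. Notch1 itself differed from PBS by -0.13 (log2) in LateDT and -0.13 in FullDT, uncalled, so the ratio differs more from PBS than Rbpj does in FullDT and less in LateDT.

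Hes1, a target that represses differentiation genes in many tissues, was measured at 81.8 and 84.9 CPM in the PBS mice, 86.1, 82.5 and 85.6 in the EarlyDT mice, 94.7, 84.5 and 81.8 in the LateDT mice, and 79.9, 78.3 and 75.0 in the FullDT mice. The FullDT mice lay below all other mice by a small margin, and LateDT mouse 1 was the highest. Compared with PBS, Hes1 differed in log2 by 0.024 (95% interval -0.11 to 0.16) in EarlyDT, 0.062 (95% interval -0.077 to 0.20) in LateDT and -0.10 (95% interval -0.24 to 0.037) in FullDT, with no call. Against LateDT the difference of Hes1 in FullDT was -0.16, 95% interval -0.29 to -0.039, adjusted p = 0.0723, and it passed without LateDT mouse 3 (adjusted p = 0.0454, range 0.0454 to 0.215 over 12 alternatives).

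Hey1 (ENSMUSG00000040289, chr3:8663359-8667256 on the minus strand, GRCm38), a target best known in arterial endothelium and mural cells, had the largest log2 fold changes of the 10 genes, in the 3 comparisons with FullDT. Its raw counts were 145 and 129 in the PBS mice, 156, 172 and 117 in the EarlyDT mice, 155, 144 and 189 in the LateDT mice, and 56, 90 and 102 in the FullDT mice. Its level was 5.08 and 5.14 CPM in the PBS mice, 5.43, 5.65 and 5.01 in the EarlyDT mice, 4.62, 5.65 and 5.92 in the LateDT mice, and 2.40, 2.67 and 3.15 in the FullDT mice. The 3 FullDT mice were lower than every mouse of the other groups, and PBS, EarlyDT and LateDT overlapped. Group means were 5.11 ± 0.0429 CPM (SD, n = 2) in PBS, 5.37 ± 0.325 CPM (SD, n = 3) in EarlyDT, 5.39 ± 0.685 CPM (SD, n = 3) in LateDT and 2.74 ± 0.381 CPM (SD, n = 3) in FullDT. Against PBS, Hey1 fell in FullDT with a log2 fold change of -0.89, 95% interval -1.22 to -0.56, adjusted p = 0.00176, a 1.85-fold lower level. The call held in all 11 alternatives, with log2 fold changes of -1.002 to -0.81. The log2 difference was 0.073 (95% interval -0.25 to 0.40) in EarlyDT and 0.077 (95% interval -0.24 to 0.40) in LateDT, and neither was called. The ratio of Hey1 to Hes1 counts was at most 0.0421 in the FullDT libraries and at least 0.0488 in all others, and Hes1 itself lay lower in FullDT, uncalled.

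In EarlyDT against PBS, 0 of 10 were called by edgeR, where 0.00544% of all tested genes (1 of 18375) were called, 7 without PBS mouse 1 and 0 without PBS mouse 2 or any EarlyDT mouse. With edgeR, 0 of the 10 reached an unadjusted p under 0.05, DESeq2's Wald test also called 0, and 872 genes of the table reached an unadjusted p under 0.05. In LateDT against PBS, 1 of 10 was called, Rbpj, beside 4.55% of all genes, and it was among the lower ones, 2.69% of all genes, with 1.86% higher. A single gene of 10 does not set the members apart from that background, and the count was 0 without PBS mouse 1, PBS mouse 2, LateDT mouse 1 or LateDT mouse 2. The count of all genes was 292 without PBS mouse 1 and 377 without PBS mouse 2, from 836. In FullDT against PBS, 2 of 10 were called, beside 21.5% of all genes, with Rbpj among the 12.1% that were higher and Hey1 among the 9.39% that were lower. That share of the 10 is near the background, so the count is not a result about the Notch genes. Without PBS mouse 2, 1 of the 10 and 2026 of all genes were called, the latter from 3946. The median log2 difference of the 10 was 0.010 in EarlyDT, -0.11 in LateDT and -0.11 in FullDT, beside -0.0098, 0.0040 and -0.0059 for all tested genes.

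**Figure D2:**
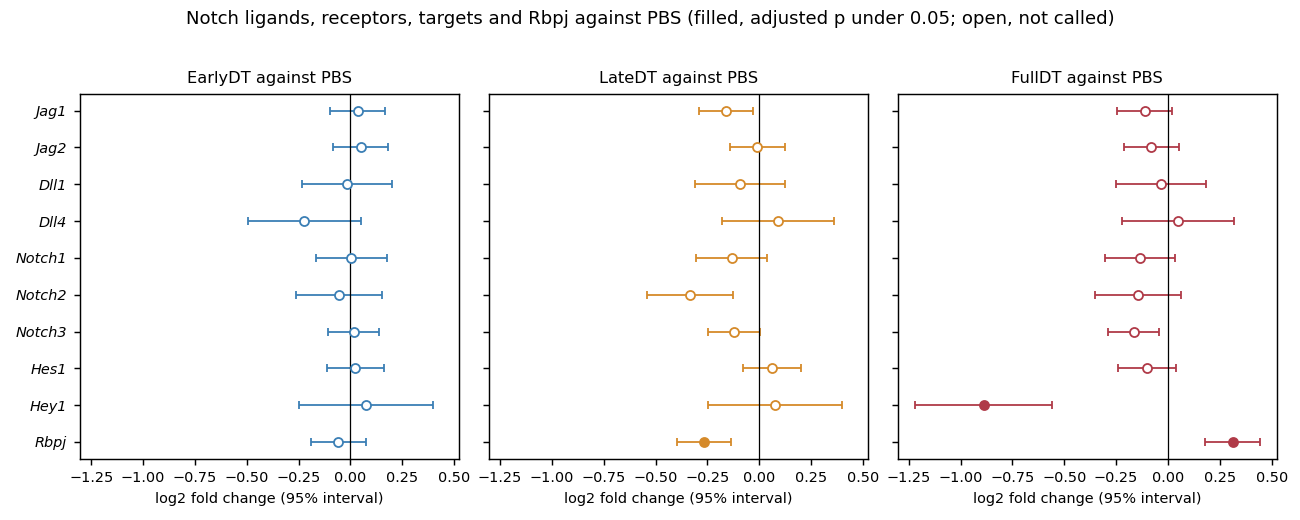
Log2 fold change (horizontal axes) of each of the 10 genes against PBS in EarlyDT, LateDT and FullDT, with 95% intervals. Filled points passed an adjusted p of 0.05, which held for Rbpj in LateDT and for Hey1 and Rbpj in FullDT.

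The regimens were also compared with each other, which asks whether the doses on days 6 and 8, added to those on days 10 and 12, changed the pathway in skin of the same age. In FullDT against LateDT, both harvested on day 13, 2 of 10 genes were called beside 16.8% of all genes (10.7% higher and 6.11% lower in FullDT). Hey1 fell with a log2 fold change of -0.97, 95% interval -1.27 to -0.67, adjusted p = 0.000637. Rbpj rose with a log2 fold change of 0.58, 95% interval 0.46 to 0.69, adjusted p = 4.01e-05, a 1.49-fold higher level. All 3 FullDT mice lay on the same side of all 3 LateDT mice for each, and both calls held in all 12 alternatives. Without LateDT mouse 3, Notch2 (log2 fold change 0.27, adjusted p = 0.0421, range 0.0421 to 0.401 over 12 alternatives) joined Hes1 as called, which took the count to 4. The count of 2 is near the background of this comparison, where 3096 genes were called, and 1987 without FullDT mouse 1.

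In EarlyDT against LateDT, 1 of 10 genes was called beside 6.38% of all genes (3.27% higher and 3.12% lower in EarlyDT), a share that 1 gene cannot set apart. Of all genes 1173 were called, and 573, 353 and 619 without EarlyDT mice 1, 2 and 3 in turn. Rbpj was higher in EarlyDT with a log2 fold change of 0.21, 95% interval 0.091 to 0.33, adjusted p = 0.0437, and all EarlyDT mice lay above all LateDT mice. The call of Rbpj ended at adjusted p = 0.113 without EarlyDT mouse 1, 0.158 without EarlyDT mouse 2, 0.0633 without EarlyDT mouse 3, 0.0894 without LateDT mouse 1, 0.0728 without LateDT mouse 2 and 0.0593 without LateDT mouse 3, and at 0.0800 with DESeq2's Wald test, 0.0637 with edgeR fitted to the 2 groups alone and 0.0675 with no filter on low counts (range 0.0348 to 0.158 over 12 alternatives). Notch2 missed the threshold at a log2 difference of 0.28, 95% interval 0.090 to 0.46, adjusted p = 0.0779, and was called at adjusted p = 0.0244 without LateDT mouse 3, and at 0.0387 with library size in place of TMM scaling and 0.00621 with no filter on low counts, out of a range of 0.00621 to 0.238.

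In FullDT against EarlyDT, 3 of 10 genes were called beside 23.1% of all genes (13.2% higher and 9.81% lower in FullDT), again near the background. Hey1 fell with a log2 fold change of -0.96, 95% interval -1.26 to -0.66, adjusted p = 0.000437, Notch3 fell as given above, and Rbpj rose with a log2 fold change of 0.37, 95% interval 0.25 to 0.49, adjusted p = 0.000487. The calls of Hey1 and Rbpj held in all 12 alternatives. Fitted to these 2 groups alone, edgeR called 6 of the 10, adding Jag1 (adjusted p = 0.0389, range 0.0389 to 0.243), Jag2 (0.0424, range 0.0424 to 0.292) and Hes1 (0.0339, range 0.0339 to 0.344), all lower in FullDT. The same fit called 5372 of all genes, from 4236 with all 4 groups fitted. DESeq2's Wald test also called Jag1 in FullDT against EarlyDT (0.0394). The mice of these groups also differed in age at harvest and in markers of cell types.

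Around these 10 genes, 61 genes were followed in 7 lists of other pathway genes, from further ligands to corepressors, and 57 of them were tested. Of these, Kyat1 encodes a kynurenine aminotransferase and is no Notch pathway gene. Dll3, Dner, Hes3 and Hes5 did not pass the filter on low counts. In EarlyDT against PBS, edgeR called 0 of the 57, with 0 at an unadjusted p under 0.05, and DESeq2's Wald test called 0. In LateDT against PBS, 0 were higher and 2 lower, Hey2 and Ccnd1, with 14 at an unadjusted p under 0.05, and 4 were called without LateDT mouse 3. In FullDT against PBS, 4 were higher (Dlk2, Dtx3, Dtx3l and Adam17) and 7 lower (Dlk1, Pofut1, Hdac2, Kyat1, Hes2, Hey2 and Ccnd1), and 6 in all without PBS mouse 2. With Kyat1 set aside, 6 of 56 were lower in FullDT against PBS, and 6 in FullDT against EarlyDT. These shares were near those of all tested genes, so they are no result about the pathway. The median log2 difference of the 57 was -0.050 in LateDT and -0.010 in FullDT, and the log2 differences in FullDT ran from -2.39 to 2.41.

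Of the other ligand and receptor genes, Dlk1 and Dlk2 encode membrane proteins related to the Delta-like ligands, and Dlk1 is known for holding back fat cell differentiation and for its fall after birth. Dlk1 was measured at 43.5 and 40.6 CPM in the PBS mice, 32.4, 44.1 and 52.6 in the EarlyDT mice, 45.7, 37.5 and 52.2 in the LateDT mice, and 8.40, 4.72 and 11.1 in the FullDT mice. All 3 FullDT mice were below every other mouse, by a wide gap, and the remaining groups overlapped. Dlk1 fell in FullDT against PBS with a log2 fold change of -2.39, 95% interval -3.01 to -1.76, adjusted p = 0.000185, a 5.23-fold lower level, and against LateDT of the same age with -2.49, 95% interval -3.07 to -1.91, adjusted p = 0.000101. Against PBS the log2 difference was 0.032 (95% interval -0.56 to 0.62) in EarlyDT and 0.10 (95% interval -0.49 to 0.69) in LateDT. Dlk2 rose in FullDT against PBS (log2 fold change 0.58, adjusted p = 0.0133), a call that ended at adjusted p = 0.134 without PBS mouse 2 (range 0.00705 to 0.134). Notch4, the endothelial receptor, differed in log2 by -0.13 (95% interval -0.40 to 0.14) and was not called.

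**Figure D3:**
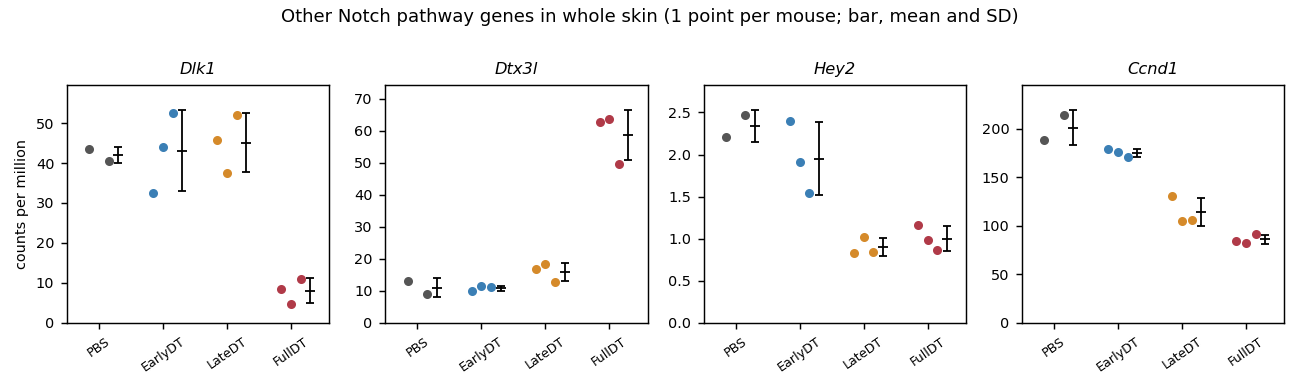
Level in CPM (vertical axes, starting at 0) of Dlk1, Dtx3l, Hey2 and Ccnd1 in every mouse of the 4 groups, with group mean and SD. Dlk1 was low and Dtx3l high in the 3 FullDT mice alone, and Hey2 and Ccnd1 were lower in LateDT and FullDT mice than in PBS and EarlyDT mice.

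Counts within single lists of the pathway in FullDT against PBS stand beside 12.1% of all genes higher and 9.39% lower, and with 3 to 12 genes a list they are too small to be set apart from it. Among the other target genes, 0 of the 8 tested rose and 3 fell. Hey2, the close relative of Hey1 that acts in arteries and in the dermal papilla of the follicle, was measured at 2.21 and 2.47 CPM in the PBS mice, 2.40, 1.91 and 1.54 in the EarlyDT mice, 0.834, 1.02 and 0.845 in the LateDT mice, and 1.16, 0.980 and 0.866 in the FullDT mice. The LateDT and FullDT mice shared a low range that did not meet the range of PBS and EarlyDT. LateDT and FullDT share a harvest day that EarlyDT does not, so age and regimen cannot be told apart here. Hey2 fell against PBS in LateDT with a log2 fold change of -1.38, 95% interval -1.87 to -0.89, adjusted p = 0.00697 and in FullDT with -1.23, 95% interval -1.71 to -0.75, adjusted p = 0.00236. The LateDT call ended with edgeR fitted to the 2 groups alone (adjusted p = 0.0513, range 4.70e-05 to 0.0513). Unlike Hey1, Hey2 did not separate FullDT from LateDT, with a log2 difference of 0.15, 95% interval -0.33 to 0.63, adjusted p = 0.699.

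Ccnd1, the cyclin D1 gene, is a Notch target in some cells and answers to other pathways as well. It was measured at 189 and 214 CPM in the PBS mice, 179, 176 and 171 in the EarlyDT mice, 131, 105 and 106 in the LateDT mice, and 84.6, 82.0 and 91.5 in the FullDT mice. The groups formed steps without overlap, with PBS highest, EarlyDT next, then LateDT, and FullDT lowest. Its log2 fold change against PBS was -0.82, 95% interval -1.02 to -0.62, adjusted p = 0.00118 in LateDT and -1.23, 95% interval -1.43 to -1.02, adjusted p = 1.01e-05 in FullDT, and it was also lower in FullDT than in LateDT (-0.41, adjusted p = 0.00716). The EarlyDT difference of Ccnd1 was -0.20 (95% interval -0.40 to 0.0069) and was not called. LateDT and FullDT were harvested on day 13 and EarlyDT on day 9, and the day of the PBS mice is not in the labels. Only the step of Ccnd1 from LateDT to FullDT is therefore known to be at a single age. Hes2 fell in FullDT against PBS (log2 fold change -0.72, adjusted p = 0.0283), and that call ended at adjusted p = 0.0898 without PBS mouse 1, 0.121 without PBS mouse 2, 0.0503 without FullDT mouse 1, 0.0863 without FullDT mouse 2 and 0.0686 without FullDT mouse 3 (range 0.000287 to 0.121).

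Of the 12 ubiquitin ligases and endocytic regulators, 2 rose and 0 fell in FullDT against PBS. Dtx3l, a deltex ligase that is known as an interferon-induced partner of Parp9, was measured at 13.1 and 8.84 CPM in the PBS mice, 9.79, 11.4 and 11.1 in the EarlyDT mice, 16.7, 18.3 and 12.6 in the LateDT mice, and 62.6, 63.5 and 49.7 in the FullDT mice. All FullDT mice stood far above every other mouse. Its log2 fold change was 2.41, 95% interval 1.98 to 2.84, adjusted p = 1.44e-05, a 5.33-fold higher level, and the LateDT difference of 0.53, 95% interval 0.11 to 0.95, adjusted p = 0.145, did not pass but was called with no filter on low counts (0.00114, range 0.00114 to 0.535). Dtx3, a related ligase, rose with a log2 fold change of 0.38, adjusted p = 0.0261, and the call ended at adjusted p = 0.222 without PBS mouse 2, 0.0516 without FullDT mouse 1, 0.0699 without FullDT mouse 2 and 0.0630 without FullDT mouse 3, and at 0.0511 with edgeR fitted to the 2 groups alone (range 0.000585 to 0.222). Its log2 fold change was 0.62 without PBS mouse 1 and 0.17 without PBS mouse 2. Itch, a ligase that marks Notch for degradation, differed in log2 by -0.13 (95% interval -0.27 to 0.018) without a call.

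Sugar transferases modify the receptor, and proteases cleave it. Of 5 sugar transferases, 0 rose and 1 fell in FullDT against PBS: Pofut1, which adds the fucose that Notch receptors need to bind ligand (log2 fold change -0.37, adjusted p = 0.00663, not called without PBS mouse 2, adjusted p = 0.0721, range 0.00136 to 0.0721). Poglut1, which adds glucose, differed in log2 by -0.17 (95% interval -0.37 to 0.028) and the fringe gene Mfng by 0.31 (95% interval -0.058 to 0.68), and neither was called. Of 10 cleavage genes, 1 rose and 0 fell: Adam17, which encodes a sheddase of many surface proteins, at a log2 fold change of 0.31, 95% interval 0.18 to 0.43, adjusted p = 0.00296. Ncstn, the gamma-secretase subunit nicastrin, missed the threshold at a log2 difference of 0.14, adjusted p = 0.0513, and passed at 0.0438 with DESeq2's size factors and 0.0295 with at least 10 counts asked in every library (range 0.0295 to 0.261). Aph1b differed in log2 by -0.24 (95% interval -0.47 to -0.00020), and is uncertain because its neighbour Aph1c is a near-identical copy.

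Of 7 nuclear coactivators, 0 were called in FullDT against PBS by edgeR, with 2 at an unadjusted p under 0.05 and 0 called by DESeq2's Wald test. The Mastermind gene Maml3 differed in log2 by -0.17, adjusted p = 0.0768 (called at 0.0371 with edgeR fitted to the 2 groups alone, range 0.0371 to 0.252), the acetyltransferase gene Kat2b by 0.12 (95% interval 0.010 to 0.23) and Snw1 by -0.066 (95% interval -0.17 to 0.035). Of the 12 genes in the corepressor list, 0 rose and 2 fell, and with Kyat1 set aside 1 of 11 fell. Hdac2, a histone deacetylase, fell with a log2 fold change of -0.22, adjusted p = 0.00977, and the call ended at 0.0638 without PBS mouse 2 (range 0.00571 to 0.0638). Kyat1, which is no corepressor gene, fell with a log2 fold change of -0.31, adjusted p = 0.00757, and its adjusted p was 0.0640 without PBS mouse 1 (range 0.00386 to 0.0640). Ctbp1, a corepressor, missed the threshold at a log2 difference of -0.17, adjusted p = 0.0504.

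Between regimens, FullDT against LateDT called 5 of the 57 other pathway genes higher and 4 lower, near the share of all genes, and 5 in all without FullDT mouse 1. The higher ones were Dtx3l (log2 fold change 1.89, adjusted p = 2.33e-05), Adam17 (0.27, adjusted p = 0.00367), Tle4 (0.39, adjusted p = 0.00591), Furin (0.24, adjusted p = 0.0173) and Dtx3 (0.34, adjusted p = 0.0302). The lower ones were Dlk1 and Ccnd1, given above, Neurl1a (-0.74, adjusted p = 0.0349) and Hdac2 (-0.17, adjusted p = 0.0248). Tle4 encodes a Groucho corepressor, Furin the protease that cuts the Notch precursor, and Neurl1a a ubiquitin ligase that acts on ligands, and these 3 are named because they were called, after their values were seen. The adjusted p of Furin was 0.0665 without LateDT mouse 2, 0.0858 without FullDT mouse 1 and 0.0511 without FullDT mouse 3, and 0.0644 with library size in place of TMM scaling. For Neurl1a it was 0.0970 without LateDT mouse 1, 0.0857 without LateDT mouse 3, 0.0899 without FullDT mouse 1 and 0.123 without FullDT mouse 2, and 0.0810 with edgeR fitted to the 2 groups alone. For Dtx3 it was 0.0815 without LateDT mouse 2, 0.0733 without LateDT mouse 3, 0.0667 without FullDT mouse 1, 0.0912 without FullDT mouse 2 and 0.0835 without FullDT mouse 3, and 0.0591 with library size in place of TMM scaling. For Hdac2 it was 0.0897 without LateDT mouse 2, 0.0630 without LateDT mouse 3, 0.0667 without FullDT mouse 1 and 0.0981 without FullDT mouse 2, and 0.124 with DESeq2's Wald test, 0.0648 with edgeR fitted to the 2 groups alone and 0.104 with no filter on low counts. Over all alternatives the ranges were 0.00529 to 0.0858 for Furin, 0.000165 to 0.123 for Neurl1a, 0.000676 to 0.0912 for Dtx3 and 0.00515 to 0.124 for Hdac2. The calls of Dtx3l, Adam17, Tle4, Dlk1 and Ccnd1 held in all 12 alternatives of this comparison.

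EarlyDT against LateDT called 4 of the 57 higher and 1 lower, where 6.38% of all genes were called, so this count too lies near the background. In all, 3, 2 and 2 were called without EarlyDT mice 1, 2 and 3, and 3 and 9 without LateDT mice 2 and 3. Hey2 (log2 fold change 1.13, adjusted p = 0.0105) and Ccnd1 (0.62, adjusted p = 0.00235) were higher in EarlyDT in all 12 alternatives. Numbl (0.37, adjusted p = 0.0248), a relative of the endocytic Notch inhibitor Numb, and Spen (0.21, adjusted p = 0.0418), a corepressor that Rbpj recruits, were higher too, and Psenen (-0.23, adjusted p = 0.0242), a gamma-secretase subunit, was lower. These 3 are likewise named after their values were seen. The adjusted p of Numbl was 0.108 without EarlyDT mouse 2, 0.0657 without EarlyDT mouse 3 and 0.0526 without LateDT mouse 2, and 0.0703 with edgeR fitted to the 2 groups alone (range 0.000362 to 0.108). That of Spen was 0.105 without EarlyDT mouse 1, 0.111 without EarlyDT mouse 2, 0.117 without EarlyDT mouse 3, 0.0824 without LateDT mouse 1 and 0.128 without LateDT mouse 2, and 0.0595 with DESeq2's Wald test and 0.0840 with edgeR fitted to the 2 groups alone (range 0.0198 to 0.128). That of Psenen was 0.0774 without EarlyDT mouse 1, 0.0931 without EarlyDT mouse 2, 0.0694 without EarlyDT mouse 3 and 0.0754 without LateDT mouse 2, and 0.0756 with DESeq2's Wald test, 0.0558 with edgeR fitted to the 2 groups alone, 0.0837 with library size in place of TMM scaling and 0.0716 with no filter on low counts (range 0.0232 to 0.0931). FullDT against EarlyDT called 8 of the 57 higher and 7 lower, near the 23.1% of all genes, and 9, 8, 6 and 9 in all without EarlyDT mouse 1, EarlyDT mouse 3, FullDT mouse 2 and FullDT mouse 3.

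For each called member, the genes with the most similar profile were sought among 13896 others with a mean of at least 50 counts, by the root mean square distance between log2 CPM profiles over the 11 libraries after each was centred on its mean. The nearest to Hey1 were Abcc9 (0.124), Sostdc1 (0.146) and Cd93 (0.148), where the median gene lay at 0.448. Abcc9, a subunit of a potassium channel, averaged 24.2 CPM in PBS, 23.7 in EarlyDT, 25.3 in LateDT and 13.6 in FullDT, Sostdc1, a secreted inhibitor of BMP and Wnt signals, 73.5 CPM in PBS, 72.8 in EarlyDT, 70.8 in LateDT and 40.4 in FullDT, and Cd93, a lectin-like surface receptor, 40.1 CPM in PBS, 35.6 in EarlyDT, 38.7 in LateDT and 22.5 in FullDT. Being chosen for nearness to Hey1, these genes share its pattern by construction. The nearest to Rbpj were Acp2 (0.0654), Dse (0.0723) and Serinc3 (0.0791), against a median of 0.264. Acp2, a lysosomal acid phosphatase, averaged 24.7 CPM in PBS, 23.2 in EarlyDT, 21.1 in LateDT and 30.4 in FullDT, and Serinc3, a membrane protein, 209.8 CPM in PBS, 189.8 in EarlyDT, 188 in LateDT and 255 in FullDT, which again follows from the choice. The nearest to Notch3 were Atm (0.0308), Zc3h4 (0.0318) and Sec23a (0.0324), but the profile of Notch3 itself spread by only 0.0882 around its mean, so small distances there say little. The profiles of Hey1 and Rbpj spread by 0.437 and 0.220 around their means, near their median distances. A distance under the median therefore says little by itself.

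Marker lists of cell types were compared between the groups too. Each list is given by its summed CPM and by the gene with the highest CPM per kilobase, said to lead it. Marker counts stand beside 21.5% of all genes called in FullDT against PBS, 16.8% in FullDT against LateDT and 23.1% in FullDT against EarlyDT. In FullDT against PBS, all 6 T cell markers rose and 0 fell, and the summed level of the list, led by Cd3g, was 12.2 and 15.7 CPM in the PBS mice, 12.99, 14.7 and 16.0 in the EarlyDT mice, 19.4, 18.0 and 16.1 in the LateDT mice, and 56.0, 43.8 and 54.3 in the FullDT mice. Of the 6 macrophage and monocyte markers, 3 rose (Cd68, Adgre1 and Itgam) and 0 fell, with a summed level, led by Lyz2, of 161 and 115 CPM in the PBS mice, 114, 127 and 83.1 in the EarlyDT mice, 111, 167 and 73.9 in the LateDT mice, and 272, 228 and 289 in the FullDT mice. In these lists the FullDT mice stood above all others, as they did for Rbpj and Dtx3l, and DESeq2's Wald test called 6 higher and 0 lower of the first list and 4 higher and 0 lower of the second. Of the 5 Treg markers, led by Tnfrsf18, 3 rose (Il2ra, Ikzf2 and Tnfrsf18), and the sum was 17.5 and 15.7 CPM in the PBS mice, 15.6, 18.1 and 18.0 in the EarlyDT mice, 24.4, 21.2 and 21.6 in the LateDT mice, and 35.7, 34.1 and 31.0 in the FullDT mice. The other 2 Treg markers, Foxp3 and Ctla4, were not called, with Foxp3 at a log2 difference of -0.30, so the sum is not read as a count of Tregs. The part of these lists in the results for Rbpj and Hey1 was not tested.

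Of the 8 endothelial markers, Pecam1 rose while Cdh5 and Kdr fell in FullDT against PBS. Their sum, led by Cldn5, was 256 and 279.6 CPM in the PBS mice, 261, 263 and 266 in the EarlyDT mice, 286, 281 and 274 in the LateDT mice, and 262, 279 and 265 in the FullDT mice. This sum adds markers that moved in opposite directions. All LateDT mice lay above all EarlyDT mice in it, and the other pairs of groups overlapped. Of the 6 mural markers, Myh11 rose and Pdgfrb, Acta2 and Cspg4 fell, with a sum, led by Acta2, of 562 and 595 CPM in the PBS mice, 565, 594 and 604 in the EarlyDT mice, 753, 621 and 660.3 in the LateDT mice, and 613, 582 and 599 in the FullDT mice. For the mural list DESeq2's Wald test called 2 higher and 3 lower in FullDT against PBS. Against LateDT, 1 endothelial marker rose and 5 fell in FullDT (Cdh5, Kdr, Tek, Tie1 and Egfl7), with a median log2 difference of -0.24, and 0 mural markers were called by edgeR, with 2 at an unadjusted p under 0.05 and 1 by DESeq2's Wald test. Whether these lists account for any share of the Hey1 difference was not tested.

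Of the 6 melanocyte markers, 0 rose and 5 fell in FullDT against PBS (Mlana, Pmel, Tyr, Tyrp1 and Dct), with a sum, led by Pmel, of 1195 and 1404 CPM in the PBS mice, 1104, 821 and 1005 in the EarlyDT mice, 1241, 1072 and 1170.2 in the LateDT mice, and 775, 753 and 738 in the FullDT mice. The 6 fibroblast markers, led by Col1a1, held 3 that fell (Col1a1, Col1a2 and Lum), with sums of 15006 and 13138 CPM in the PBS mice, 9558, 17098 and 13397 in the EarlyDT mice, 11916, 13486 and 6238 in the LateDT mice, and 6709, 6774 and 7519.5 in the FullDT mice. LateDT mouse 3 was below every other mouse for this list, and FullDT below PBS and EarlyDT, and DESeq2's Wald test called 0 higher and 4 lower in FullDT against PBS. The 6 suprabasal keratinocyte markers, led by Lor, held 2 that fell (Krt1 and Krt10), with sums of 8764 and 6660.1 CPM in the PBS mice, 5110.4, 7988 and 8484 in the EarlyDT mice, 4873, 5892 and 5712 in the LateDT mice, and 4898, 5069 and 5222 in the FullDT mice. LateDT and FullDT lay below both PBS mice for this list, and DESeq2's Wald test called 0 higher and 4 lower in FullDT against PBS. Of the 6 basal keratinocyte markers, led by Krt5, 1 rose (Krt14) and 0 fell by edgeR, with all 6 at an unadjusted p under 0.05, and DESeq2's Wald test called 4 higher and 1 lower. Their sums were 7699 and 8281 CPM in the PBS mice, 7199.7, 8359 and 8343 in the EarlyDT mice, 9971, 9064 and 8514 in the LateDT mice, and 9733, 9442 and 9706 in the FullDT mice. Of the 8 hair follicle markers, led by Krt71, Gata3 rose and Lef1 fell, with sums of 21149.9 and 16439 CPM in the PBS mice, 15598, 19524 and 20879 in the EarlyDT mice, 17434, 23806 and 23113 in the LateDT mice, and 19513, 20214 and 19195 in the FullDT mice. Of the 6 adipocyte markers, led by Fabp4, 0 were called by edgeR in FullDT against PBS, with 0 at an unadjusted p under 0.05 and 2 by DESeq2's Wald test. Beside 21.5% of all genes called in FullDT against PBS, counts of 1 or 2 in lists of 6 or 8 cannot be set apart. What part these lists had in the results for the 10 genes was not tested.

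Markers were also called in FullDT against LateDT, the comparison at a single age that holds the Hey1, Rbpj and Dlk1 calls. Of all genes, 16.8% were called there. The adipocyte sum, led by Fabp4, was 382 and 475 CPM in the PBS mice, 356, 426 and 355 in the EarlyDT mice, 465, 561 and 460.1 in the LateDT mice, and 373, 424 and 408 in the FullDT mice. In this sum the FullDT mice lay below all LateDT mice and overlapped PBS and EarlyDT. Of the 6 adipocyte markers, 1 was called lower in FullDT than in LateDT by edgeR (Adipoq), 5 reached an unadjusted p under 0.05, DESeq2's Wald test called 0 higher and 5 lower, and the median log2 difference was -1.67. In the same comparison edgeR called 6 higher and 0 lower of the 6 T cell markers, 5 higher and 0 lower of the 6 macrophage and monocyte markers, 2 higher and 0 lower of the 5 Treg markers and 0 higher and 5 lower of the 6 melanocyte markers. It called 1 higher and 1 lower of the 6 basal keratinocyte markers and 1 higher and 0 lower of the 6 fibroblast markers. No suprabasal or hair follicle marker was called by edgeR, with 1 and 0 at an unadjusted p under 0.05 and 2 and 0 called by DESeq2's Wald test. The part of these lists in the differences of Hey1, Rbpj and Dlk1 between FullDT and LateDT was not tested.

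In FullDT against EarlyDT, the comparison that called Notch3, Hey1 and Rbpj, markers of cell types were called as well, beside 23.1% of all genes. Of the 6 mural markers, edgeR called 1 higher and 3 lower (Myh11 higher and Pdgfrb, Acta2 and Cspg4 lower), and of the 6 suprabasal keratinocyte markers 0 higher and 2 lower (Krt1 and Krt10), the cell types in which Notch3 is known. Of the 8 endothelial markers it called 2 higher and 4 lower (Pecam1 and Emcn higher and Cdh5, Kdr, Tek and Cldn5 lower). It called 6 higher and 0 lower of the 6 T cell markers, 5 higher and 0 lower of the 6 macrophage and monocyte markers and 3 higher and 0 lower of the 5 Treg markers. Of the 6 melanocyte markers it called 0 higher and 4 lower, of the 6 fibroblast markers 0 higher and 2 lower, of the 6 basal keratinocyte markers 3 higher and 0 lower and of the 8 hair follicle markers 1 higher and 0 lower. Among adipocyte markers edgeR called 0, with 0 at an unadjusted p under 0.05 and 1 called by DESeq2's Wald test. Of the 6 skeletal muscle markers edgeR called 1 higher (Myh4) and 0 lower, and DESeq2's Wald test called 2 higher and 0 lower. The summed levels of these lists are given for each mouse above, and those of skeletal muscle below. Their part in the differences of Notch3, Hey1 and Rbpj between FullDT and EarlyDT was not tested.

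In LateDT against PBS, the comparison in which Rbpj fell, skeletal muscle markers stood apart. Their sum, led by Acta1, was 1240.2 and 1363 CPM in the PBS mice, 1219, 1008 and 1670.0 in the EarlyDT mice, 3571, 1479 and 4691 in the LateDT mice, and 1654, 1175 and 2240.0 in the FullDT mice. LateDT mice 1 and 3 were above every other mouse and LateDT mouse 2 was not, and 1 of the 6 markers was called by edgeR, Myh4, which was higher, as it was in FullDT. All 6 reached an unadjusted p under 0.05 in LateDT against PBS, with a median log2 difference of 1.31. In the other comparisons with LateDT in which Rbpj was called, 4 of the 6 were lower in EarlyDT (Ckm, Myh4, Mylpf and Myl1) and 3 in FullDT (Myh4, Mylpf and Myl1), with medians of -1.42 and -0.98. DESeq2's Wald test called 1, 3 and 1 of the 6 in these 3 comparisons. Of all genes, edgeR called 4.55%, 6.38% and 16.8% in the same order. In LateDT against PBS, Pecam1, Myh11 and Des rose and Pdgfrb, Cspg4, Krt1 and Pdgfra fell. In EarlyDT against LateDT, Pdgfrb, Cspg4, Krt1 and Pdgfra were higher and Pecam1, Myh11, Des, Krt15, Fabp4 and Tnfrsf18 lower by edgeR. The part of these markers in the 3 Rbpj differences with LateDT was not tested.

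Rbpj protein recognises a core of 6 bases, TGGGAA, or TTCCCA on the opposite strand. The 250 bases before each RefSeq gene start (GRCm38.p6) were searched for it on both strands, and 21.6% of 32851 windows held at least 1 match. Windows were found for 8 of the 10 genes, without Hes1 and Hey1, and only Rbpj held the core. Of the other pathway genes with a window, 13 of 47 held it, Hey2 among them. Counted by window this was 13 of 59, near the share of all windows. The Rbpj and Hey2 stretches are shown because these genes changed in opposite directions in FullDT, with the core in capitals and the bases that GENCODE M21 places in exons left out. Each stretch as shown holds 1 match. The whole Rbpj window held 2, the second of them in the exon bases left out. An overlapping Rbpj window held 1, which is that same second site. The Rbpj stretch is chr5:53590096-53590213 (plus strand), inside the annotated span of Rbpj and intronic to its longer transcripts, directly before the first exon of a shorter transcript. The Hey2 stretch is chr10:30842802-30843033 (minus strand) and lies directly before the first exon of Hey2. A match describes the letters of the window and says nothing on binding.
Rbpj: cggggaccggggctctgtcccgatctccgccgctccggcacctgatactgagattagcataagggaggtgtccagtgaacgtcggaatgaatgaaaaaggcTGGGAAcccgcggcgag
Hey2: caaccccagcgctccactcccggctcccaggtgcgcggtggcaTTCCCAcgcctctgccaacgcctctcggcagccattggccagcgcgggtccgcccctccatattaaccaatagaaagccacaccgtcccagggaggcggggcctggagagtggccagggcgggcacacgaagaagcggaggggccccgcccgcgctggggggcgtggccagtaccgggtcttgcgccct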

How the data were processed

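Bulk RNA sequencing was available for whole skin of 11 mice, grouped by the treatment label. The authors trimmed reads with Trimmomatic 0.36, aligned them to GRCm38 with STAR 2.5.2b and counted reads on exons with featureCounts (Subread 1.5.2), per their methods and the submitters' processing notes. The authors deposited raw counts for 49315 genes, without normalization. The strand setting and annotation release of the counting are not given in the sources used here. The table gives gene names, blank in 174 rows, and exon lengths were taken from GENCODE M21.

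Tests ran in edgeR 4.0.16 under R 4.3.3, with limma 3.58.1 loaded by it and DESeq2 1.42.0 for alternatives. Genes were filtered with filterByExpr by group, which left 18375, and libraries, of 23377571 to 34159435 counts, were scaled by TMM. A model with a mean for each of 4 groups was fitted to all libraries (common dispersion 0.0120), and 6 pairs of groups were tested with the quasi-likelihood test and Benjamini-Hochberg adjustment. Standard errors were taken from each log2 fold change and its F value, and the 95% intervals from them and the test's degrees of freedom. They cover the spread between mice. Replicates were compared by a chi-square per gene, whose median was 1.02 to 3.52 between libraries of a group, above the 0.455 of counting error, so no library duplicated another of its group, and pairs across groups were not compared.

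The 10 genes and all lists were chosen with earlier results of these data known. Named were the 10 genes, of each pathway list the 3 genes with the smallest unadjusted p in FullDT against PBS and those called in EarlyDT or LateDT against PBS, 3 genes by likeness for each called member, the leading gene of each marker list with genes at or under 3 counts, and Foxp3. Other pathway genes and markers that are named belong to counts of 5 or fewer, or to a marker list that moved, and were chosen after their values were seen. The marker lists were endothelial, mural, basal and suprabasal keratinocyte, hair follicle, fibroblast, adipocyte, T cell, Treg, macrophage and monocyte, melanocyte and skeletal muscle. Alternatives were DESeq2's Wald test, a fit of the 2 groups alone, DESeq2 size factors, library size, no filter, at least 10 counts in every library, and leaving out each mouse. Sorted Tregs, which the study also sequenced, were not analysed here.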

Additional observations from a re-analysis of the deposited data

Results flagged for a closer look

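Levels of 3 of the 10 genes differed between regimens by the direct test of 1 regimen against another. Rbpj was higher in FullDT than in LateDT (log2 fold change 0.58) and than in EarlyDT (0.37), and higher in EarlyDT than in LateDT (0.21) by a call that held in 3 of 12 alternatives. The lower Rbpj of LateDT against PBS was called in 3 of 11 alternatives. Hey1 was lower in FullDT than in LateDT (-0.97) and than in EarlyDT (-0.96), while EarlyDT and LateDT differed by -0.0037 (95% interval -0.29 to 0.28). Notch3 was lower in FullDT than in EarlyDT (-0.18), a call that held in 7 of 12 alternatives, and in FullDT against LateDT, which share their harvest day, it differed by -0.045 (95% interval -0.16 to 0.067), was not called and overlapped. EarlyDT skin was harvested earlier than LateDT and FullDT skin, and the day of the PBS mice is not in the labels, so in comparisons with either group age and regimen cannot be told apart.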

How the results depend on the processing

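Alternatives were run for the 10 genes and 27 other named pathway genes, and none of their called differences changed sign. Markers and genes named for likeness were not rerun under them, apart from the counts by DESeq2's Wald test for marker lists. Of 360 values of the 10 genes under another test, scaling or filter, 344 kept their side of the threshold, 7 lost a call and 9 gained it, and with a mouse left out these were 310, 16 and 4 of 330. For the other named pathway genes they were 916, 28 and 28 of 972, and 808, 74 and 9 of 891. The largest shift of the median of all genes by another scaling was -0.044 on the log2 scale. No paired analysis was possible because the labels give no replicate numbers. A group of PBS with 1 mouse left out was assumed to vary like the other groups.

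All genes called in EarlyDT against PBS numbered 1, and 19 with DESeq2's Wald test, 0 with the 2 groups alone, 54 with no filter and 0 with at least 10 counts in every library. In LateDT against PBS they numbered 836, and 154 with the 2 groups alone and 1790 with no filter. In EarlyDT against LateDT they numbered 1173, and 540 and 2173 under the same settings. In FullDT against EarlyDT they numbered 4236, and 5372 with the 2 groups alone. Of the 10 genes, LateDT against PBS called 1, and 0 with DESeq2, 0 with the 2 groups alone, 0 with library size and 2 with no filter. EarlyDT against LateDT called 1, and 0 with the 2 groups alone and 2 with library size, and FullDT against EarlyDT called 3, and 6 with the 2 groups alone. Of the 57 other pathway genes, Kyat1 included, LateDT against PBS called 2, and 1 with the 2 groups alone and 7 with no filter, EarlyDT against LateDT 5, and 2 and 8, and FullDT against EarlyDT 15, and 24 with the 2 groups alone. The cause of these changes was not tested.

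With a mouse left out, all genes called ranged over 0 to 7 in EarlyDT against PBS, 292 to 903 in LateDT against PBS, 2026 to 3493 in FullDT against PBS, 1987 to 2942 in FullDT against LateDT, 353 to 1172 in EarlyDT against LateDT and 3065 to 3404 in FullDT against EarlyDT. For the 10 genes the ranges were 0 throughout EarlyDT against PBS, 0 to 1 in LateDT against PBS, 1 to 2 in FullDT against PBS, 2 to 4 in FullDT against LateDT, 0 to 1 in EarlyDT against LateDT and 2 to 3 in FullDT against EarlyDT. For the other pathway genes they were 2 to 4, 6 to 11, 5 to 11, 2 to 9 and 6 to 11 in the same order, and 0 in EarlyDT against PBS. Hey1 had 56 to 189 counts per library and Foxp3 9 to 23, which limits the precision for both.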
